A study of Mus musculus with 2 samples.

Results

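The transcripts described here are those of 46 genes that build and police the mitotic spindle: mitotic kinesins, centromere and kinetochore proteins, the spindle checkpoint, the mitotic kinases and cyclins, and factors of anaphase and cytokinesis. The list was drawn up by function, with earlier results of these data known, and no difference between the arrays entered the rule. Each gene was represented by its brightest probe set over both arrays among those that the platform annotation assigns to 1 gene only. Of the 46, 45 had such a probe set, out of 18193 genes on the array in all; Ccnb1, which encodes cyclin B1, had none and was not analysed here. A gene counted as measured where log2(intensity + 1) came to 6 or more, an intensity of 63, on at least 1 array; this held for all 45 and for 11397 genes in all, and that limit is called the floor. The primary myoblasts, muscle precursor cells, came from newborn mice of the Sv129 strain and were grown on laminin and collagen. Control cells spent 4 hours in DMEM medium with 2% HS, as the labels spell it, and treated cells an equal time in that medium plus Wnt3a (R&D) at 100 ng/ml. The comparison addresses which transcripts differ after a short exposure to this secreted Wnt ligand, which stabilises β-catenin. Each group had 1 array of bulk RNA, so no difference has a replicate check and none can be tested; the number of arrays limits the precision of every value. The labels do not say how many animals or cultures were pooled.

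In a dividing cell, cyclin A and cyclin B activate Cdk1, Cdc25 phosphatases remove the inhibitory phosphates from it, and the cell enters mitosis. Kinesins and microtubule-binding proteins then assemble the spindle, kinetochores attach chromosomes to it, and the checkpoint proteins hold back the anaphase-promoting complex (APC/C) until every chromosome is attached. Most of these genes are transcribed together late in the cell cycle. Myoblasts divide in rich medium and leave the cell cycle when serum is lowered, so their transcripts also follow how many cells are cycling. In bulk RNA, fewer cells in mitosis and less transcript per mitotic cell cannot be told apart.

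Promoters of these genes are known for a CCAAT box, bound by NF-Y, and a cell cycle homology region (CHR), bound by MuvB complexes that repress them in resting cells. RefSeq promoter windows (build GRCm38.p6, 250 bases before to 50 after the start) matched 39 of the 46 genes by symbol. The following stretches are the 150 bases before the start of the 6 genes with the largest differences between the arrays among those with a CHR core in that stretch. Capitals mark CCAAT and the CHR cores TTTGAA and TTTAAA on either strand, so that ATTGG and TTCAAA are the same motifs read from the opposite strand.
Kif15: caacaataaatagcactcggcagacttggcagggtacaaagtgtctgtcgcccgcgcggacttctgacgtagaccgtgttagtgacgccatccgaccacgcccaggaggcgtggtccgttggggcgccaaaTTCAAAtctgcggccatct
Plk1: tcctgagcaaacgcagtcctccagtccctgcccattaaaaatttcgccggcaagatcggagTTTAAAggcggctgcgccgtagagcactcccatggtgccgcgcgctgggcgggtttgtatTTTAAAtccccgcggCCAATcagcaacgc
Cenpa: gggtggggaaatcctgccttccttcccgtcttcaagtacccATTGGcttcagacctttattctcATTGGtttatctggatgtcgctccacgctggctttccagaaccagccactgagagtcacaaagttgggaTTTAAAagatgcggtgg
Mki67: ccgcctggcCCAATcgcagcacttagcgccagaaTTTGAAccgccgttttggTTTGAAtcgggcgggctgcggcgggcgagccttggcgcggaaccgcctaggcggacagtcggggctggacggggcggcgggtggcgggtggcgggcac
Prc1: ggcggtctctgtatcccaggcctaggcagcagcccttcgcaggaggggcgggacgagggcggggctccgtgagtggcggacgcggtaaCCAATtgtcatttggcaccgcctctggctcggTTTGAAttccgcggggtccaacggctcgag
Cenpn: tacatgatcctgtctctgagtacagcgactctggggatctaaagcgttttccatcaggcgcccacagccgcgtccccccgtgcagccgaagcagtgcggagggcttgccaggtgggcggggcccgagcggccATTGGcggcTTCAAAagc
They lie at chr9:122950931-122951080 (Kif15, plus strand), chr7:122159285-122159434 (Plk1, plus), chr5:30666736-30666885 (Cenpa, plus), chr7:135716380-135716529 (Mki67, minus), chr7:80294326-80294475 (Prc1, plus) and chr8:116921590-116921739 (Cenpn, plus), each printed 5′ to 3′ along the gene. In Prc1 a CCAAT box ends 58 bases and a CHR core 25 bases before the start. In Cenpa 2 inverted CCAAT boxes end 105 and 82 bases before the start and a CHR core 12. Plk1 has its CHR cores 84 and 24 bases before the start with a CCAAT box downstream of both, Mki67 has both of its cores far upstream at 111 and 93 bases, and Kif15 has a CHR core but no CCAAT box here. On the Wnt3a array as deposited, Kif15, Plk1, Cenpa and Cenpn were higher than on the control array and Mki67 and Prc1 lower. Scaled on the spike-in controls, where 9.59% of all measured genes were lower, all 6 were higher, with Mki67 and Prc1 each at 0.11.

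Over the whole 300-base window, CCAAT on either strand was found in 29 of the 39 genes (74.4%), against 42.7% of the 9229 measured genes with a promoter in the table and 41.1% of all 27025 genes in it. The CHR core TTTGAA was found in 26 (66.7%), against 13.8% of measured genes and 20.2% of all, and TTTAAA in 9 (23.1%), against 10.6% and 14.9%. A CCAAT box together with either core was found in 24 genes (61.5%), against 8.71% of measured genes and 12.2% of all. An E2F-type core (TTCCCGC or TTGGCGC) was present in 9 genes (23.1%), against 14.1% of measured genes and 7.79% of all. A TCF/LEF-type core (CTTTGAT or CTTTGAA), the kind through which β-catenin acts, was present in 5 (12.8%), against 6.97% of measured genes and 9.88% of all. In the 150 bases before the start it was present in 5.13%, against 3.23% and 4.81%. CTTTGAA contains the CHR core TTTGAA, and all 5 genes also hold TTTGAA, so these matches can be the same letters. A match describes the letters and shows no binding. The 23 measured genes with both a CCAAT box and a CHR core had a median difference of -0.029 (13 lower, 10 higher). The 15 with a promoter that did not hold both had -0.066 (10 lower, 5 higher). Among all measured genes 51.2% were lower, and the gap between these groups was not tested. Scaled on the spike-in controls, 2 of the 45 members were lower, against 9.59% of all measured genes.

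The mitotic genes differed little between the arrays. None of the 45 differed by 1.5-fold, a size reached by 1.23% of the measured genes, or by 2-fold, reached by 0.316%, and Cdc25b alone differed by 1.2-fold, which 8.59% of the measured genes did. In all, 27 were lower with Wnt3a (60.0%), 17 higher and 1 equal, against 51.2% lower and 47.3% higher among all measured genes and 54.7% among the 7639 with a mean level of at least 8, where 43 of the 45 lie; scaled on the spike-in controls, 2 of the 45 were lower, against 9.59% of all measured genes. The median difference, Wnt3a minus control in log2(intensity + 1), was -0.034, against -0.0057 for all measured genes and -0.015 for the bright ones. The middle part of the members, from the lower to the upper quartile, ran from -0.091 to 0.049, and that of all measured genes from -0.093 to 0.078. The median size of difference, whatever its sign, was 0.073 for the members, 0.085 for all measured genes and 0.077 for the bright ones. The share of lower genes was thus close to the background of genes of like brightness, and the spread was no wider.

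**Figure D1:**
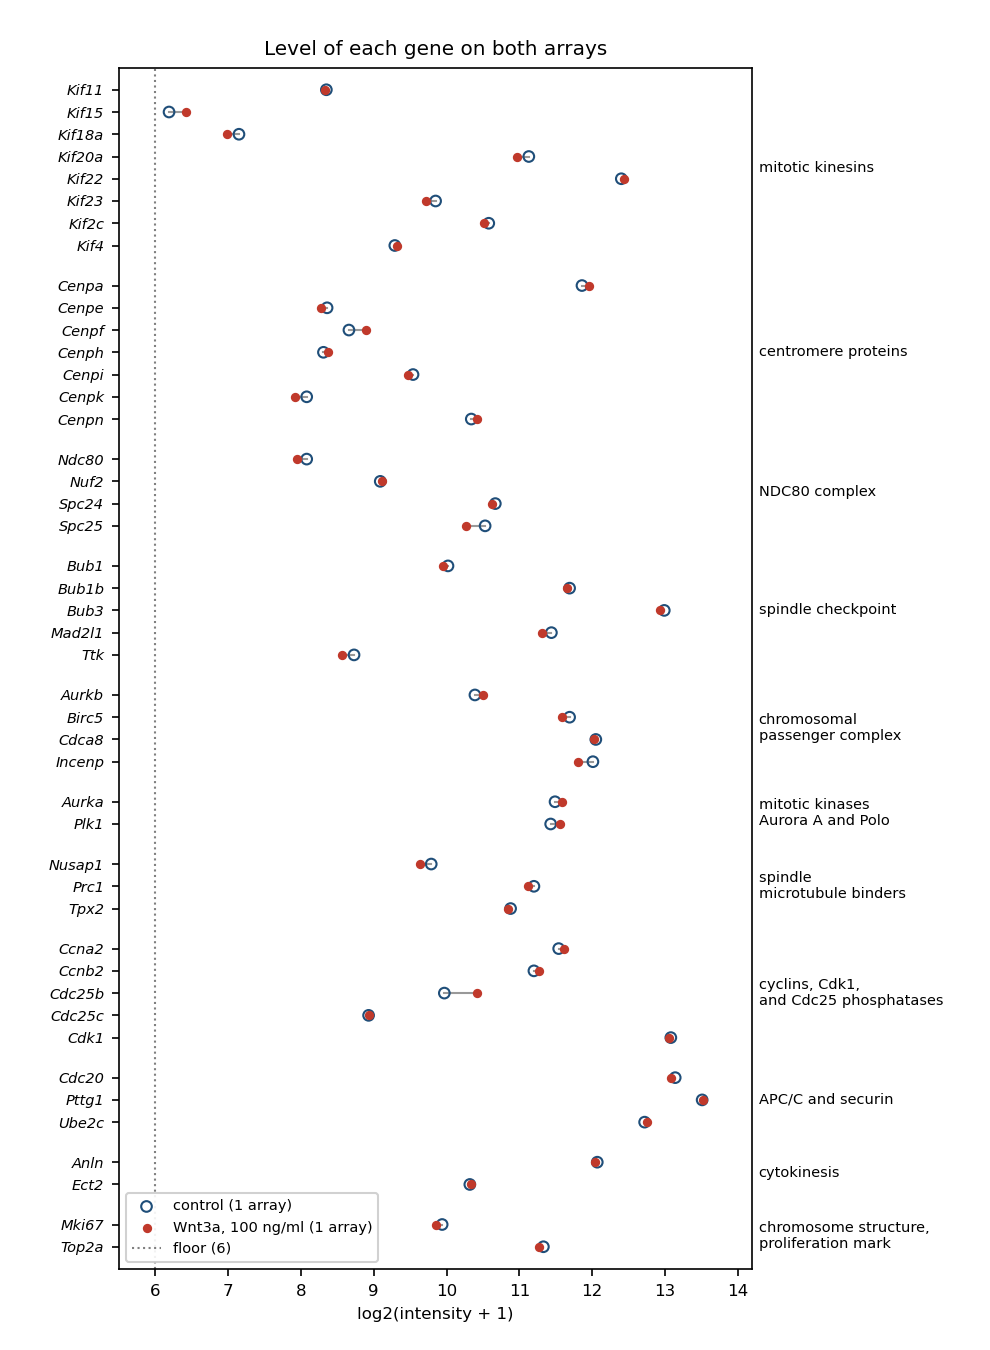
Level of each of the 45 genes on the control array (open circles) and the Wnt3a array (red dots), as log2(intensity + 1), grouped by role; the dotted line is the floor of 6. Both marks nearly coincide for most genes, and the longest gap is that of Cdc25b (9.97 to 10.42); levels of different genes come from different probes and are not comparable.

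Each direction is given against the array as deposited. The 42 spike-in probe sets were all lower on the Wnt3a array, with a median difference of -0.19, and scaling on them would add 0.19 to every difference and turn the sign of 25 of the 45 members. That shift is the same for every gene, so over a fixed set of genes the distance between the members' median and that of all genes does not depend on it. With the floor applied after the shift, the members' median lay at -0.032 relative to that of all measured genes. As deposited the medians were -0.034 and -0.0057. With no second array, probe sets of the same gene give the sole repeat. Their pooled SD was 0.12 over the 5084 genes that had at least 2 at the floor and 0.10 over the 19 members that did, and it shows noise between probes, not between cultures. The differences of 14 of the 45 members were larger than 0.12. The smallest of these, that of Plk1 (0.13), was reached or passed by 33.8% of all measured genes. Of the 19 members, 13 had all their probe sets at the floor on 1 side (9 lower, 4 higher; 68.4%), against 54.7% of all such genes, and 26 members rested on 1 probe set at the floor.

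The largest difference was in the phosphatases that switch on Cdk1. Cdc25b, which activates Cdk1 at the centrosome as cells enter mitosis, was at 9.97 in the control and 10.42 with Wnt3a, 1.36-fold higher (log2 difference 0.45) on its only probe set, which is of the type that can match several transcripts, so that no value is left when such probe sets are dropped. It was the 1 member outside the central 95% of measured genes (-0.33 to 0.33); 2.52% of measured genes differed by as much or more. Its relative Cdc25c had the identical value on both arrays, 8.93, and 0.07 on a second probe set. Cdc25a, another phosphatase of the family that also acts at the start of S phase and is no member, was at 10.03 and 9.73 (-0.30, and -0.31 on its other probe set). The family therefore lay on both sides, with Cdc25b higher, Cdc25a lower and Cdc25c level; under spike-in scaling Cdc25a also stays below the control, since its difference exceeds 0.19. Wee1, the kinase that puts on the phosphate Cdc25 removes, was at 10.61 and 10.36 (-0.25, and -0.31 on a second probe set).

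Cdk1 and its cyclins were nearly level. Cdk1, the mitotic kinase itself, was at 13.08 in the control and 13.05 with Wnt3a. Ccna2, the S and G2 cyclin, was at 11.54 and 11.61 (0.067), but at 11.05 and 10.99 on its second probe set, so its direction depends on the probe. Ccnb2, a B-type cyclin, was at 11.20 and 11.27 (0.073). Together with the Cdc25 genes this group had 1 lower, 3 higher and 1 equal member, where 47.3% of all measured genes were higher. Its median was 0.067, and all 5 were higher under spike-in scaling, where 9.59% of all measured genes were lower.

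The Polo and Aurora kinases, brought together here from different role groups, were slightly higher with Wnt3a, where 47.3% of all measured genes were higher. The kinases Ttk, Bub1 and Cdk1 were lower as deposited, as was Wee1 (-0.25), which is no member. The kinases as a class thus shared no direction. Plk1, the Polo kinase that drives centrosome maturation and kinetochore attachment, was at 11.43 and 11.56 (0.13). Aurka, the spindle pole kinase Aurora A, was at 11.49 and 11.58 (0.089, and 0.16 on a probe set below the floor). Aurkb, the kinase of the chromosomal passenger complex, was at 10.39 and 10.50 (0.11), and its second probe set gave 0.13. Plk1, Aurka and Aurkb were higher in every setting that kept a probe set of theirs (leaving out probe sets of the shared-transcript type drops Aurkb), and each difference was close to or below the pooled SD between probe sets.

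The partners of Aurora B lay on the other side. The passenger complex holds the kinase on the inner centromere through Incenp, Birc5 (survivin) and Cdca8 (borealin). Incenp, its scaffold, was at 12.01 in the control and 11.81 with Wnt3a (-0.20), and its other probe sets at the floor gave -0.11, -0.04 and 0.08, the last on the opposite side. Birc5 was at 11.69 and 11.59 (-0.11). Cdca8 was at 12.05 and 12.02, with -0.03 to -0.06 over 3 probe sets. The complex thus had 3 lower subunits and 1 higher, with a median of -0.068, where 51.2% of all measured genes were lower. Scaled on the spike-ins, Incenp alone of the 4 stays lower, against 9.59% of all measured genes.

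All 5 checkpoint genes were lower with Wnt3a, by small amounts. Under spike-in scaling, where 9.59% of all measured genes were lower, all 5 turned higher. Ttk, the kinase MPS1 that starts the checkpoint signal, was at 8.73 and 8.57 (-0.15, and -0.13 on a probe set below the floor). Mad2l1, the MAD2 protein that binds and blocks Cdc20, was at 11.44 and 11.31 (-0.13). Bub1, the kinase that recruits the others to kinetochores, was at 10.02 and 9.95 (-0.077). Bub3, its adaptor, was at 12.99 and 12.93, with -0.15 on a second probe set at the floor. Bub1b, which encodes BUBR1, was at 11.69 and 11.65 (-0.041), with -0.09 on a second probe set; averaging its probe sets gave 0.01. The group's median was -0.077, against -0.0057 for all measured genes, and 51.2% of measured genes were lower. With loess or quantile correction all 5 remained on the low side.

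The NDC80 complex, the rod that links kinetochores to microtubules, was uneven over its 4 subunits. Spc25 was at 10.53 in the control and 10.27 with Wnt3a (-0.26), the lowest difference of all 45 members and just under 1.2-fold. This rested on a probe set whose type can match several transcripts; the other, below the floor, gave 0.23. Ndc80, which touches the microtubule, was at 8.08 and 7.95 (-0.13), while Spc24, the direct partner of Spc25, was at 10.67 and 10.63 and Nuf2, the partner of Ndc80, at 9.09 and 9.11. On their brightest probe sets, subunits of 1 dimer thus had unlike differences, a gap that was not tested. Averaged over its probe sets, Spc25 came to -0.02. The median was -0.088, with 3 lower and 1 higher, where 51.2% of all measured genes were lower. Under spike-in scaling 1 was lower, against 9.59% of all measured genes.

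Centromere proteins did not share a direction: 3 of 7 were lower and 4 higher, where 51.2% of all measured genes were lower. Their median was 0.057. Under spike-in scaling, where 9.59% of all measured genes were lower, all 7 were higher. With probe sets that can match several transcripts left out, 3 of 5 were lower and the median was -0.066. Cenpf, a large kinetochore protein of G2 and mitosis, was at 8.66 and 8.89 (0.23) on its brightest probe set but at 6.32 and 6.04 (-0.28) on another, and as a mean over all it came to -0.08. Cenpk, of the inner kinetochore network, was at 8.08 and 7.92 (-0.16). Cenpa, the histone variant that marks centromeres, was at 11.86 and 11.95 (0.082), with probe sets below the floor on both sides (-0.12 and 0.19). Cenpe, a kinetochore motor, differed by -0.091, and Cenpi by -0.066, while Cenph (0.057) and Cenpn (0.071, and 0.02 on a second probe set) were higher.

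Of the 8 mitotic kinesins 5 were lower and 3 higher, with a median of -0.033, where 51.2% of all measured genes were lower. All 8 were higher under spike-in scaling, where 9.59% of all measured genes were lower. Kif15, a spindle motor that backs up Kif11, was at 6.19 and 6.42 (0.23), close to the floor and on 1 probe set. Kif18a, which shortens microtubule ends to align chromosomes, was at 7.15 and 6.98 (-0.18). Kif20a, a motor of the central spindle, was at 11.13 and 10.97 (-0.16). Kif23, a motor of the same structure, was at 9.85 and 9.72, with -0.13 and -0.16 on its probe sets at the floor. Kif11, the motor that separates spindle poles, was nearly level on its brightest probe set (8.35 and 8.33) but gave -0.16 and -0.19 on its other probe sets; loess or quantile correction turned the brightest to the high side. Kif2c, which removes wrong attachments, gave -0.05 to -0.08 over 3 probe sets at the floor. Kif22, a chromosome arm motor, gave 0.03 to 0.06 over 3, and Kif4 was at 9.29 and 9.32.

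The 3 spindle microtubule binders were all lower, with a median of -0.075, where 51.2% of all measured genes were lower. All 3 turned higher under spike-in scaling, where 9.59% of all measured genes were lower. Nusap1, which bundles microtubules near chromosomes, was at 9.79 and 9.63 (-0.16, the same on a probe set below the floor). Prc1, the bundler of the central spindle, was at 11.20 and 11.12 (-0.075, and -0.14 on a second probe set). Tpx2, the activator of Aurora A, was at 10.88 and 10.85, and its 4 probe sets ranged from -0.07 to 0.00.

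Genes of anaphase and cytokinesis had the medians closest to 0 of the role groups, 0.017 and -0.013. Those of chromosome structure had a median of -0.066. Cdc20, the APC/C activator that the checkpoint restrains, was at 13.14 and 13.08 (-0.065; -0.04 to -0.13 over 3 probe sets). Ube2c, the ubiquitin-conjugating enzyme of the APC/C, was at 12.72 and 12.75, and Pttg1, securin, at 13.51 and 13.52, although its dimmest probe set gave 0.19. Anln, the contractile ring protein anillin, was at 12.07 and 12.04 with -0.11 on a second probe set, and Ect2, which activates RhoA there, was at 10.32 and 10.33. Mki67, the proliferation mark Ki-67, was at 9.94 and 9.86 (-0.081) on its only probe set. Top2a, which untangles sister chromatids, was at 11.33 and 11.27 (-0.052) but at 7.56 and 7.89 (0.33) on its other probe set at the floor, the widest disagreement in sign after that of Cenpf; with probe sets of the shared-transcript type left out, or all averaged, Top2a was higher. Ube2c, Pttg1 and Ect2 were higher as deposited. Under spike-in scaling, where 9.59% of all measured genes were lower, all of the genes in this paragraph were higher.

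Other genes of mitosis behaved like the members. Of 125 measured genes in 6 lists of the same machinery, none differed by 1.5-fold, a size reached by 1.23% of all measured genes. Of the 125, 74 were lower (59.2%, against 51.2% of all measured genes), with a median of -0.025. Under spike-in scaling 10 of 125 were lower, against 9.59% of all measured genes. Among 31 further centromere and kinetochore genes 17 were lower (median -0.030), with Ska2 (-0.33, but -0.01 on a second probe set), Trip13 (-0.20) and Ska3 (-0.19) furthest from 0; Ska2 and Ska3 belong to a complex that couples kinetochores to shortening microtubules, and Trip13 disassembles the checkpoint complex. Among 30 further spindle and motor genes 17 were lower (median -0.013), with Haus1 (-0.25) and Haus3 (-0.23) of the microtubule-branching augmin complex on the low side and Ckap2l (0.22, and 0.21 on its other probe set) on the high side. Of 16 other APC/C genes 12 were lower, with a median of -0.035 and Anapc10 at -0.16, Cdc26 at -0.12 (0.07 on another probe set) and Ube2s at 0.11. Condensin and cohesin genes had 10 of 18 lower (median -0.034), with Smc2 at -0.15, Rad21 at 0.11 (-0.08 on another probe set) and Stag2 at -0.11. Cytokinesis genes had 5 of 7 lower (median -0.055), with Shcbp1 at -0.24, Septin7 at -0.14 (-0.09 on another probe set) and Cit at 0.10. The 4 probe sets of Cit at the floor ranged from 0.10 to 0.35. Regulators of G2/M entry and transcription had 13 of 23 lower (median -0.0038), with Cdc25a, Wee1 and the G2/M transcription factor gene Mybl2 (-0.19) furthest from 0.

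The G1/S and replication genes, which act earlier in the same cycle, lay further to the low side than the mitotic genes. Of 29 measured, 22 were lower (75.9%, against 51.2% of all measured genes) and 7 higher, with a median of -0.10; under spike-in scaling 6 of 29 were lower, against 9.59% of all. The 3 that differed by 1.2-fold, a size reached by 8.59% of all measured genes, were all lower: Cdc6 (-0.35), Ccne2 (-0.29) and Orc1 (-0.44 on the brightest and 0.05 on a second probe set), which license or start replication. Under spike-in scaling, which adds 1 constant to every gene and so cannot alter their order, the medians were 0.087 for the G1/S genes, 0.15 for the mitotic members and 0.19 for all genes. With 1 array a group the gap between both sets was not tested.

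**Figure D2:**
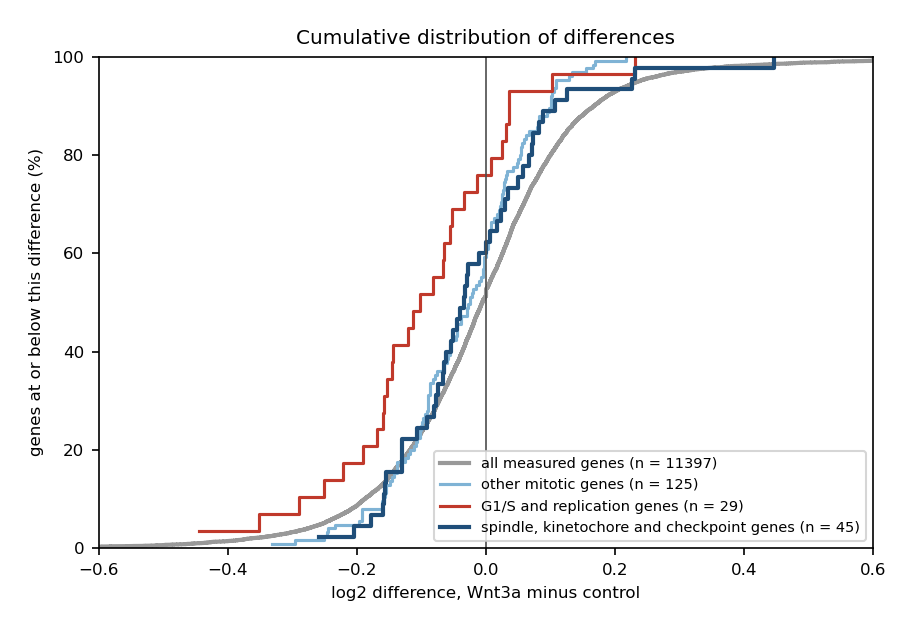
Cumulative share of genes (vertical axis, %) at or below each log2 difference, Wnt3a minus control (horizontal axis), for the 45 members, 125 other mitotic genes, 29 G1/S and replication genes and all 11397 measured genes. The curves of the members and the other mitotic genes run close to that of all genes, and the G1/S curve lies to the left (median -0.10 against -0.034 for the members); scaling on the spike-ins would move every curve right by 0.19.

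The myoblast label was checked on 7 markers, of which 6 were measured and Msc lay below the floor. Of the 6, 3 were higher and 3 lower. Myf5, a myogenic transcription factor, was at 11.96 in the control and 12.45 with Wnt3a (0.49), a larger difference than that of any mitotic member. Des, the muscle intermediate filament desmin, was at 10.91 and 11.23 (0.32). Itga7, a laminin receptor of muscle, was at 11.58 and 11.32 (-0.26), and under spike-in scaling it stays lower. The lineage factors Myod1 (13.41 and 13.28) and Pax7 (11.20 and 11.08 on its brightest probe set, 0.12 on another) were slightly lower as deposited and higher under that scaling, and the muscle cadherin gene Cdh15 was nearly level (11.59 and 11.61). None of 7 fibroblast markers reached the floor. Of 7 leukocyte markers Csf1r (6.99 and 6.95) and Cd3e (6.54 and 6.79) did. Of 5 endothelial markers Kdr (6.06 on both arrays) and Tek did; Tek, the angiopoietin receptor, was at 6.16 and 5.34 (-0.82, 1.76-fold lower), the 1 measured marker past 1.5-fold, on 1 probe set close to the floor, while Pecam1 and Cdh5 lay below it on both arrays. Of 5 Schwann cell markers Sox10 (7.35 and 7.43) and Erbb3 (8.58 and 8.71) were measured, and of 5 smooth muscle and pericyte markers Cspg4 (9.33 and 9.11). The part of these differences in those of the mitotic genes was not tested.

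**Figure D3:**
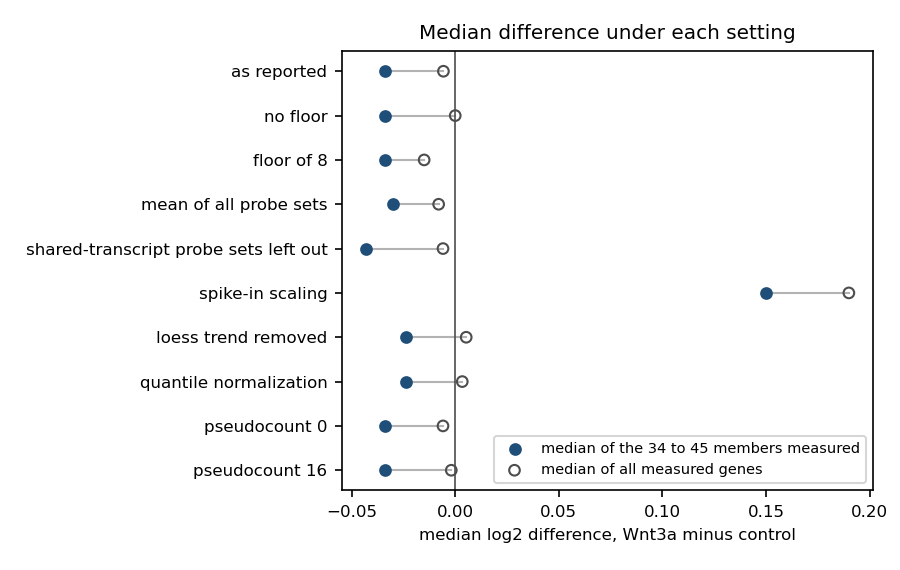
Median log2 difference, Wnt3a minus control, of the measured members (filled, 34 to 45 genes) and of all measured genes (open) under each processing setting. The members' median lies below that of all genes in every setting shown, and both are above 0 under spike-in scaling (0.15 and 0.19).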

How the data were processed

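The deposited table holds 1 intensity per probe set and array, on a linear scale from 7.07 to 37075; affy, limma and RMA are named in the submitters' processing notes, without version, order or settings. How the authors reached a linear scale is not given. The labels' protocols give Trizol extraction and a 3′ kit for the biotinylated cRNA. From the 45101 probe sets, the 64 control probe sets and those assigned to no gene or to several were left out, which left 34945. Levels were log2(intensity + 1). A pseudocount of 1 shrinks differences of dim probe sets slightly. The floor of 6 is a fixed brightness, not a detection limit. With 1 array a group there is no test; counts past 1.2-fold, 1.5-fold and 2-fold stand in for calls. Every member is named; values of both arrays are given for members with a difference of at least 0.15, with probe sets on both sides, or furthest from 0 in their role group, and for others where space allowed; of each other gene list of the cell cycle the 3 genes furthest from 0 are named, and of the marker lists every measured marker. Promoters printed are the first 6 by size of difference with a CHR core in the 150 bases before the start, none on chromosome 18. The members and lists were chosen with earlier results of these data known. The computation was tested on simulated data. Python 3.11.15, numpy 2.4.6, pandas 2.3.3, statsmodels 0.14.6 and matplotlib 3.10.9 were used.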

Additional observations from a re-analysis of the deposited data

How the results depend on the processing

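The alternatives tried were no floor, a floor of 8, averaging a gene's probe sets, dropping those of the shared-transcript type, scaling on the spike-ins, removal of a loess trend (span 0.3), quantile normalization, and pseudocounts of 0 and 16. Spike-in scaling turned the medians of the members (0.15), the other mitotic genes (0.16) and the G1/S genes (0.087) positive. It left 2 of 45 members, 10 of 125 other mitotic genes and 6 of 29 G1/S genes lower, against 9.59% of all measured genes, and 1 member, Cdc25b, past 1.5-fold, against 2.03%. With a fold of 1.2 in place of 1.5, 1 member was past it. The other alternatives gave 22 to 27 lower members and medians from -0.043 to -0.024. Over the same settings 47.1% to 54.6% of all measured genes were lower, with medians from -0.015 to 0.0053. The count of 22 is out of the 34 members that stay at the floor without the shared-transcript type, where 36 keep a probe set at any level. With a floor of 8, 26 of 43 members were lower, against 54.6% of all measured genes. Among single members, the mean of all probe sets turned the sign of Cenpf (-0.08), Top2a (0.13) and Bub1b (0.01), leaving out shared-transcript probe sets that of Top2a (0.33) and, on probe sets below the floor, of Spc25 (0.23) and Cenpa (-0.12), and loess or quantile correction that of Kif11. In the 150 bases before the start in place of the whole window, TTTGAA was found in 33.3% of the members (6.48% of measured and 10.5% of all genes), TTTAAA in 7.69% (4.9% and 7.78%, so not above all genes) and CCAAT with either core in 35.9% (3.06% and 4.24%); the window is shorter. No paired analysis was possible because each group has 1 array. No replicate could be left out for the same reason.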

Other observations

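Genes of the complexes that switch mitotic promoters lay on both sides; these were picked from the list of G2/M regulators after their values were seen. Lin52 (6.20 in the control and 6.37 with Wnt3a, 0.17) and Lin54 (8.29 and 8.42, 0.13), subunits of the MuvB core, E2f4 (9.03 and 9.14, 0.11) and Rbl2 (0.08, and 0.16 on a second probe set), which join it in the repressing form, and Foxm1 (9.81 and 9.89, 0.08 to 0.17 over 3 probe sets), which joins it as an activator, were higher. Mybl2 (8.54 and 8.34, -0.19, and -0.05 on a second probe set), the activator B-Myb, Lin9 (7.09 and 6.95, -0.14), another core subunit, and Rbl1 (8.51 and 8.42, -0.09, and 0.05 on a second probe set) were lower. Lin37, also of the core, was level at 8.71 on both arrays. Adding the spike-in shift of 0.19 would bring Lin9 and Rbl1 above 0 and leave Mybl2 near 0. All of these differences are below 1.2-fold. Of the 94 probe sets of the mitotic members, 2 had exactly the same intensity on both arrays, against 3.74% of all probe sets.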
